A study of Mus musculus with 4 samples.

Results

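The genes described here are those of oxygen sensing and the targets of the hypoxia-inducible factors (HIFs) that lie outside glycolysis. They were given as a list of 36 mouse genes, named by their known roles. No measured value enters the rule, but the list was drawn up with earlier results of these data known. Of these, 33 had values, among 11502 gene symbols in all, and Epas1, Lox and Stc2 were not analysed here. The data are RNA-Seq of HT-22 cells, a line immortalized from hippocampal neurons of the mouse, with 1 library for each of 4 groups. The Ctrl group was labelled wild type and, per the methods of the study, received a negative control lentivirus. The PGC-1α group received a lentivirus that overexpresses PGC-1α, a transcriptional co-activator of mitochondrial biogenesis encoded by Ppargc1a, and both were selected with puromycin. The Ctrl+OGD and PGC-1α+OGD groups were the same kinds of cells after oxygen and glucose deprivation (OGD), for 2 h without serum and glucose under 95% N2 and 5% CO2, with a further 24 h in normal medium before RNA was taken. The libraries after OGD therefore show the cells a day into recovery with oxygen, not during deprivation.

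HIF is a heterodimer of an oxygen-labile α subunit, such as that encoded by Hif1a, and a stable partner encoded by Arnt. When oxygen is present, prolyl hydroxylases encoded by Egln1, Egln2 and Egln3 mark the α subunit, the ubiquitin ligase that contains VHL recognizes the mark, and the protein is degraded. The asparaginyl hydroxylase encoded by Hif1an blocks the recruitment of co-activators. Most of this control acts on protein, so the mRNA of Hif1a is not a measure of HIF activity. The mRNAs of HIF targets, which include Egln3 itself, are the readout that RNA-Seq gives.

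Values are given as FPKM (fragments scaled to the length of the transcript and the size of the library), summed over the deposited transcripts of a gene. Differences are given on the log2(FPKM + 1) scale, which understates the change of genes with low values. Genes are called higher or lower below when they differed by at least 1.5-fold on that scale. Those whose mean over the libraries was under 1 FPKM were not compared, which left 10604 genes, with 32 of the 33 listed genes among them. With 1 library per group, no difference had a replicate check and no p-value was computed, and the difference between 2 groups cannot be told apart from the difference between 2 libraries. In bulk RNA, a lower value can also mean lower levels in every cell or expression in fewer cells, and these cannot be told apart. Where 4 values stand in a row, they run from Ctrl to PGC-1α without OGD, then from Ctrl to PGC-1α after OGD. In this order, Ppargc1a was at 0.900, 35.1, 0.103 and 8.41 FPKM, so its level in overexpressing cells was lower after OGD. Of 12 neuron markers looked for, Eno2 was the single one among the genes compared, at 0.410 to 2.81 FPKM. Of 4 fibroblast and mesenchymal markers looked for, Col1a1 and Col1a2 were at 156 to 265 FPKM and Pdgfrb at 17.2 to 28.3 FPKM. The fourth, Dcn, had no value among those used. The labelled neuronal identity was thus not apparent in these mRNAs.

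The listed genes were mostly well expressed. In Ctrl, their median was 21.3 FPKM, against 12.8 FPKM for all genes compared, and 20 of the 32 were above that median. Fam162a, a mitochondrial protein linked to cell death in hypoxia, and Ero1l, the endoplasmic reticulum oxidase that drives disulfide formation, lay at the 95.7 and 95.3 percentile of all genes in Ctrl. Hif1a itself lay at the 90.8 percentile. Ak4, a mitochondrial adenylate kinase, and Ankzf1, a protein of ribosome quality control, lay low at the 15.4 and 10.8 percentile.

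**Figure D1:**
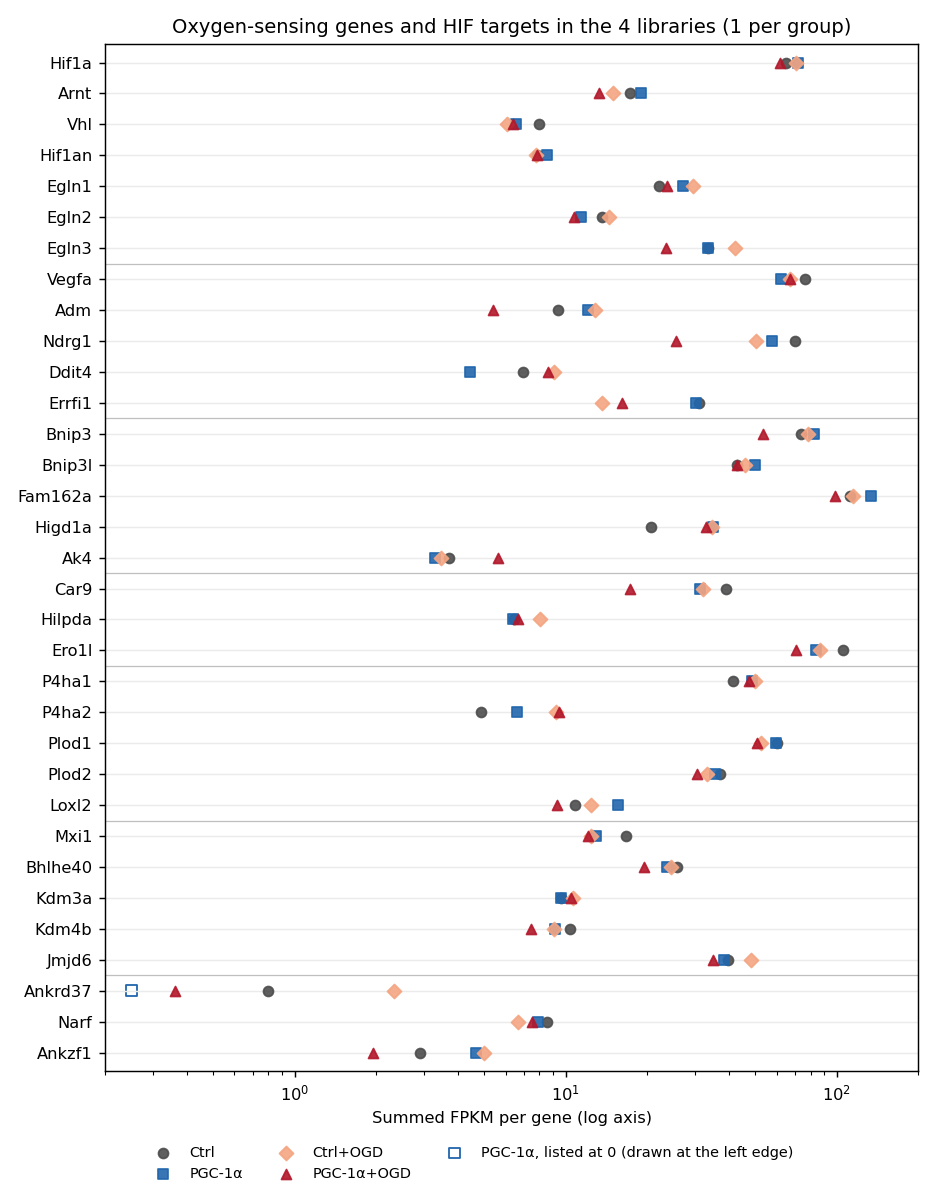
Summed FPKM (log axis) of the 33 genes in the 4 libraries, 1 point per library, with genes ordered by role and grey lines between roles. For Adm, Ndrg1, Car9, Egln3 and Ankzf1 the PGC-1α+OGD triangle lies to the left of the other 3 libraries, at 5.37, 25.6, 17.2, 23.5 and 1.94 FPKM, while the 4 points of Hif1a lie between 61.5 and 72.2 FPKM.

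Many of the listed genes, sensors as well as targets, had their lowest value in PGC-1α cells after OGD. Of the 32 genes, 19 (59.4%) had their lowest value of the 4 libraries in PGC-1α+OGD, against 23.0% of all genes. The lowest value lay in Ctrl for 4 genes (12.5%, against 28.2% of all genes), in PGC-1α for 5 (15.6%, against 24.4%) and in Ctrl+OGD for 4 (12.5%, against 24.4%). The 19 genes held sensors (Hif1a, Arnt, Egln2, Egln3), secreted and stress factors (Adm, Ndrg1), mitochondrial genes (Bnip3, Bnip3l, Fam162a), Car9, Ero1l, collagen-modifying enzymes (Plod1, Plod2, Loxl2), transcription and chromatin factors (Mxi1, Bhlhe40, Kdm4b, Jmjd6) and Ankzf1. The other 13 genes, among them the targets Vegfa, P4ha1, P4ha2, Ak4 and Kdm3a, were not lowest there, and Ak4 and P4ha2 had their highest value there. The sum over all listed genes was 1032 FPKM in Ctrl cells, 1042 FPKM in PGC-1α cells, 1018 FPKM in Ctrl+OGD cells and 839 FPKM in PGC-1α+OGD cells. The sum was thus within 1018 to 1042 FPKM in 3 libraries and lower in the fourth.

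**Figure D2:**
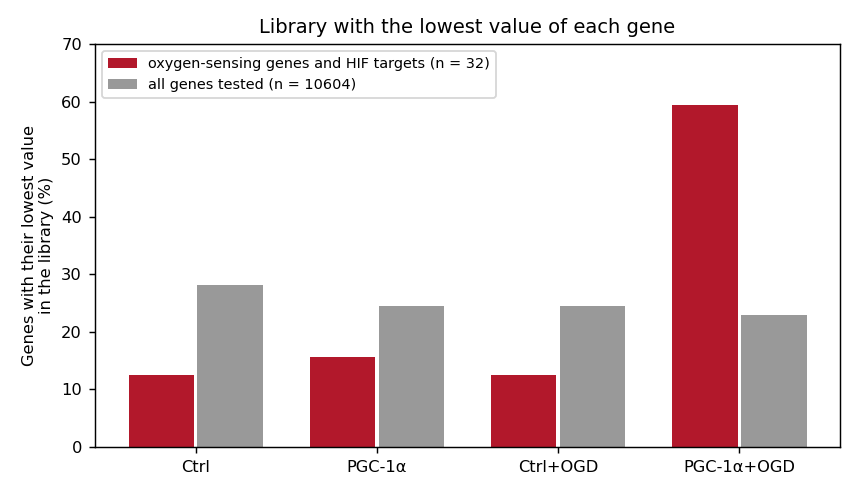
Percent of genes with their lowest value of the 4 libraries in each library, for the 32 oxygen-sensing genes and HIF targets and for all 10604 genes compared. The bar of the listed genes stands at 59.4% for PGC-1α+OGD, against 23.0% for all genes, and is below that of all genes for the other 3 libraries.

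The sequences before the start sites of 4 of the 5 genes that were lower in PGC-1α+OGD than in Ctrl+OGD are shown, since the core of the HIF response element, ACGTG or GCGTG, can be looked for there. They are from RefSeq (GRCm38.p6), in the direction of transcription. For Adm and Egln3, the 250 bases that end just before the RefSeq start are given. For Car9 and Ankzf1, whose windows lie partly in annotated exons, the match is given with its flanks, in all 29 bases. Capitals mark the match, which reads CACGT or CACGC where it lies on the opposite strand. The promoter of Ndrg1 was not in the table used.
Adm, chr7:110627407-110627656, + strand: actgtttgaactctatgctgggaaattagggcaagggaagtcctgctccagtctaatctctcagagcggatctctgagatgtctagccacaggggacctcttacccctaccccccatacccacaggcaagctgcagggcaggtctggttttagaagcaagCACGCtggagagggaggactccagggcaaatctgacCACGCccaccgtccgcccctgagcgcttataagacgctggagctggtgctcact
Egln3, chr12:54203875-54204124, - strand: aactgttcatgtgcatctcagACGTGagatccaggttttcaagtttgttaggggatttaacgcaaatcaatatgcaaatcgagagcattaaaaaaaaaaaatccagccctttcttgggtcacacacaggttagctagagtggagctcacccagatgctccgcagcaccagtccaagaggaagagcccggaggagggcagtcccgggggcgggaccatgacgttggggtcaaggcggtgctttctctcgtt
Car9, chr4:43506996-43507024, + strand: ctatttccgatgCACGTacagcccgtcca
Ankzf1, chr1:75192107-75192135, + strand: atagtgtgctctACGTGatgaggggctgg
Adm had 2 matches of GCGTG on the opposite strand, with first bases 90 and 54 bases before the start. Egln3 had 1 match of ACGTG on its own strand, 229 bases before the start, and Ankzf1 had 1 at 41 bases. Car9 had 1 match of ACGTG on the opposite strand, 18 bases before the RefSeq start. That match lies inside the GENCODE span of Car9, which begins at chr4:43506966.

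Both motifs were searched on both strands of all windows from 250 bases before to 50 bases after a start, and CACGTG counts as ACGTG on each strand. Of 27 listed genes with a promoter in the table, 25 (92.6%) held either motif, against 69.4% of 8407 genes compared that had one. ACGTG alone was held by 20 of the 27 (74.1%, against 30.3%) and GCGTG by 20 (74.1%, against 58.0%). Of all 32851 promoters in the table, 43.8% held either motif. Hif1an and Vhl had neither in these windows. The listed genes include known HIF targets, many of them known by such sites, so these shares describe the list, and a match is not a shown binding site. Promoters of Ndrg1, Bnip3l, Plod2, Loxl2, Bhlhe40 and Kdm4b were not in the table.

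Of the oxygen sensors themselves, Egln3 alone passed 1.5-fold, in PGC-1α+OGD against Ctrl+OGD. In PGC-1α+OGD against PGC-1α, all 7 sensors compared lay below 0, against 49.9% of all genes. Their median was -0.19 (all genes 0.00), with Egln3 (-0.49) and Arnt (-0.48) the lowest. Hif1a (chr12:73901375-73947530, + strand) was at 65.1 FPKM in Ctrl cells, 72.2 FPKM in PGC-1α cells, 70.7 FPKM in Ctrl+OGD cells and 61.5 FPKM in PGC-1α+OGD cells. Its partner Arnt (chr3:95434388-95497240, + strand) was at 17.2, 18.9, 15.0 and 13.3 FPKM in the same order of libraries, so the ratio of Hif1a to Arnt was 3.77 and 3.82 without OGD and 4.71 and 4.62 after OGD. Neither passed 1.5-fold in any of the 4 comparisons.

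Vhl, the recognition subunit of the ligase, was at 7.96 FPKM in Ctrl cells, 6.55 in PGC-1α cells, 6.06 in Ctrl+OGD cells and 6.39 in PGC-1α+OGD cells. Hif1an was at 7.84, 8.55, 7.79 and 7.86 FPKM. Both were thus nearly level over the 3 libraries other than Ctrl for Vhl, and other than PGC-1α for Hif1an. The largest of their differences between compared groups was -0.34 on the log2 scale, in Vhl between Ctrl+OGD and Ctrl.

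The 3 prolyl hydroxylases behaved differently from one another. Egln1, the main hydroxylase of HIF in most cells, was at 22.0 FPKM in Ctrl cells, 27.1 in PGC-1α cells, 29.5 in Ctrl+OGD cells and 23.6 in PGC-1α+OGD cells. Egln2 was at 13.6, 11.4, 14.4 and 10.7 FPKM, lower in both PGC-1α libraries than in both control libraries. Egln3 (chr12:54178981-54203860, - strand), the most strongly hypoxia-induced of the family, was at 33.5 FPKM in Ctrl cells, 33.5 in PGC-1α cells, 42.0 in Ctrl+OGD cells and 23.5 in PGC-1α+OGD cells. The PGC-1α cells thus matched their controls without OGD (log2 difference 0.00) and were lower by more than 1.5-fold after it (log2 difference -0.81). The ratio of Egln3 to Egln1 was 1.52, 1.24, 1.43 and 0.998, so the pair was about equal in PGC-1α+OGD and Egln3 was the more abundant in the other 3 libraries.

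Comparison of PGC-1α with Ctrl sets cells with the PGC-1α lentivirus beside control cells, without OGD and with 1 library each. Higd1a was the single listed gene that was higher (1 of 32, 3.12%, against 4.91% of all genes), and none was lower, against 5.63% of all genes. The median log2 difference was -0.01 (all genes -0.03), and 18 of the 32 (56.2%) lay below 0, against 54.2% of all genes. Both shares were near or under those of all genes.

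Higd1a, a small protein of the inner mitochondrial membrane that associates with cytochrome c oxidase, was at 20.7 FPKM in Ctrl cells, 34.9 in PGC-1α cells, 34.5 in Ctrl+OGD cells and 32.9 in PGC-1α+OGD cells. Ctrl was thus the low library, and the other 3 did not differ by more than -0.08 on the log2 scale. The log2 difference was 0.72 between PGC-1α and Ctrl. Part of it came from the short transcript Higd1a-206, which went from 0.394 FPKM in Ctrl to 9.53 FPKM with the PGC-1α lentivirus. The transcript Higd1a-201, which held most of the gene's value, was at 18.7 and 25.2 FPKM, and with this transcript alone the difference was 0.41 and no longer passed 1.5-fold.

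**Figure D3:**
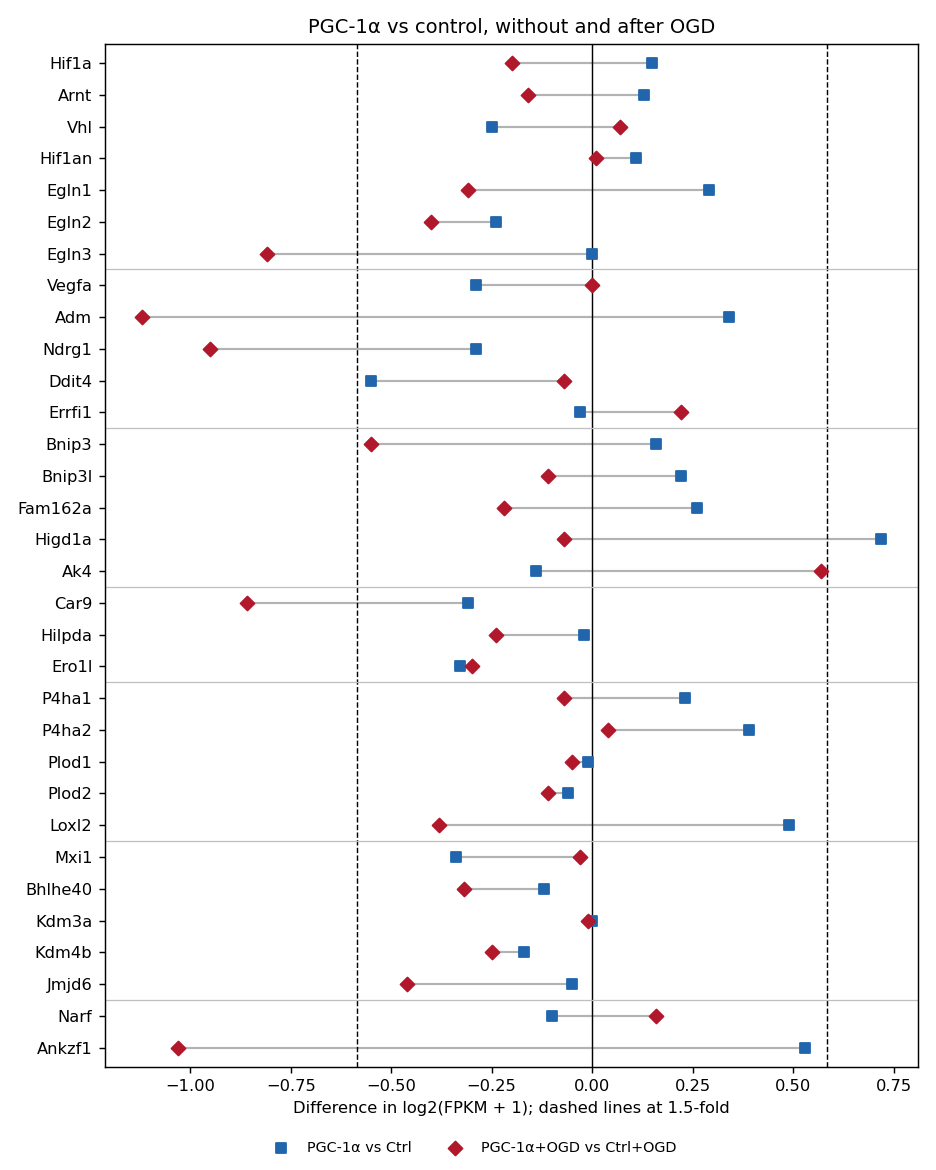
Difference in log2(FPKM + 1) between PGC-1α and control cells for the 32 genes compared, without OGD (squares) and after OGD (diamonds), with dashed lines at 1.5-fold. Adm, Ankzf1, Ndrg1, Car9 and Egln3 lie left of the dashed line after OGD, at -1.12, -1.03, -0.95, -0.86 and -0.81, and Higd1a alone lies right of it without OGD, at 0.72.

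After OGD, PGC-1α+OGD against Ctrl+OGD, 5 of the 32 genes were lower (15.6%, against 3.82% of all genes). None was higher, against 3.08% of all genes. The median log2 difference was -0.18 (all genes -0.01), with the middle of the list between -0.39 and -0.02, against -0.14 and 0.12 for all genes. In all, 25 of the 32 (78.1%) lay below 0, against 52.9% of all genes. This comparison shares no library with PGC-1α against Ctrl.

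Adm (chr7:110627661-110629820, + strand), which encodes the vasodilator peptide adrenomedullin, was at 9.38 FPKM in Ctrl cells, 12.1 in PGC-1α cells, 12.8 in Ctrl+OGD cells and 5.37 in PGC-1α+OGD cells. Ndrg1 (chr15:66929318-66969640, - strand), a stress-responsive gene of growth arrest and differentiation, was at 70.3, 57.5, 50.5 and 25.6 FPKM. Car9 (chr4:43506966-43513729, + strand), the cell-surface carbonic anhydrase that regulates pH, was at 38.9, 31.2, 32.0 and 17.2 FPKM. In each of these the PGC-1α+OGD library was the lowest, and for Ndrg1 and Car9 Ctrl was the highest. The log2 differences between PGC-1α+OGD and Ctrl+OGD were -1.12 for Adm, -0.95 for Ndrg1 and -0.86 for Car9, where those between PGC-1α and Ctrl were 0.34, -0.29 and -0.31.

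Ankzf1 (chr1:75192151-75199387, + strand) was at 2.91 FPKM in Ctrl cells, 4.65 in PGC-1α cells, 4.99 in Ctrl+OGD cells and 1.94 in PGC-1α+OGD cells. Its log2 difference after OGD was -1.03, against 0.53 without OGD. These values are low, and the exons of Ankzf1 share 37 bases with Atg9a and 476 bases with Glb1l on the opposite strand. Whether strand was used to make the values is not given in the sources used here, so reads of these genes may not be separable. The kit was a stranded one. Exons of Ndrg1 and Car9 share 419 and 145 bases with antisense transcripts that had no value among those used.

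The PGC-1α difference after OGD, less that without OGD, was -1.56 for Ankzf1, -1.46 for Adm and -0.87 for Loxl2 on the log2 scale. It was -0.81 for Egln3, -0.79 for Higd1a, -0.71 for Bnip3, -0.66 for Ndrg1, -0.60 for Egln1, -0.54 for Car9 and -0.48 for Fam162a. For Ak4 and Ddit4 it was 0.71 and 0.48. For Higd1a, Ctrl was the low library, and the difference after OGD was -0.07. The spread of this quantity over all genes was not computed. These are arithmetic differences of 4 single libraries, and no test of them was possible. Ppargc1a, the transgene's mRNA, was itself lower in PGC-1α+OGD than in PGC-1α, and its part in these values was not tested.

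Comparison of Ctrl+OGD with Ctrl sets control cells after OGD and recovery beside control cells without it, with 1 library each. Of the 32 genes, 3 were higher (9.38%, against 6.20% of all genes) and 1 was lower (3.12%, against 7.71%). The median log2 difference was 0.06 (all genes -0.02), and 15 of the 32 (46.9%) lay below 0, against 52.0% of all genes. The higher genes were P4ha2, Higd1a and Ankzf1, and the lower one was Errfi1. The HIF target Vegfa, which encodes the main growth factor of blood vessels, was at 76.1 FPKM in Ctrl cells, 62.0 in PGC-1α cells and 67.3 in both kinds of cells after OGD. This comparison shares Ctrl with PGC-1α against Ctrl, and it shares Ctrl+OGD with PGC-1α+OGD against Ctrl+OGD.

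P4ha2, a catalytic subunit of collagen prolyl hydroxylase, was at 4.85 FPKM in Ctrl cells, 6.63 in PGC-1α cells, 9.18 in Ctrl+OGD cells and 9.46 in PGC-1α+OGD cells. Both libraries after OGD were thus above both libraries without it, with log2 differences of 0.80 in control cells and 0.45 in PGC-1α cells. Its more abundant homolog P4ha1 was at 41.4, 48.7, 50.1 and 47.6 FPKM, and the ratio of P4ha1 to P4ha2 was 8.55 and 7.33 without OGD and 5.46 and 5.03 after OGD.

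Errfi1, a feedback inhibitor of the epidermal growth factor receptor, was at 30.9 FPKM in Ctrl cells, 30.3 in PGC-1α cells, 13.6 in Ctrl+OGD cells and 16.1 in PGC-1α+OGD cells. The log2 difference was -1.12 in control cells and -0.87 in PGC-1α cells. It was the single listed gene past 1.5-fold in the same direction in both comparisons of OGD, which share no library. The PGC-1α libraries did not differ from their controls by more than 0.22.

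**Figure D4:**
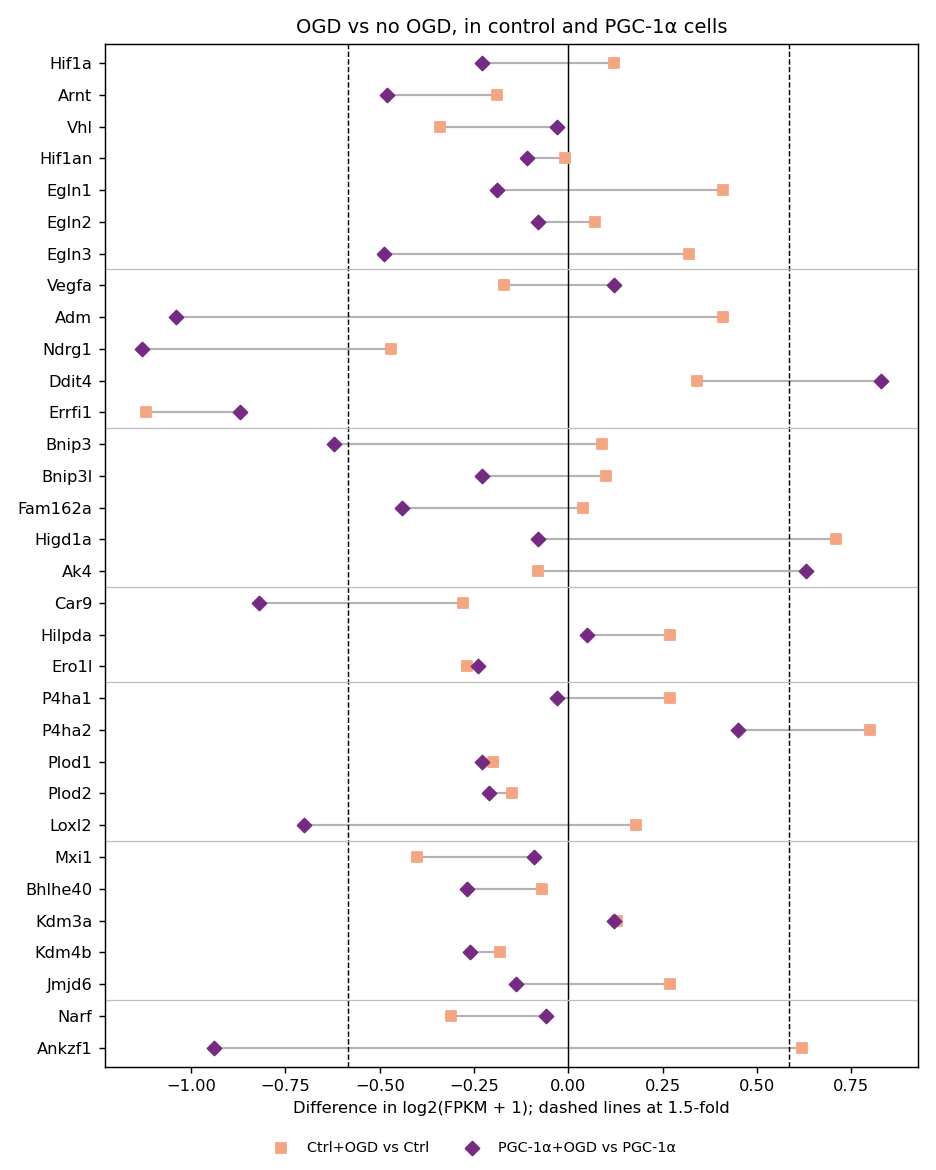
Difference in log2(FPKM + 1) between cells after OGD and cells without it for the 32 genes compared, in control and in PGC-1α cells, with dashed lines at 1.5-fold. Errfi1 lies left of the dashed line for both kinds of cells, at -1.12 and -0.87, and Ankzf1 lies on opposite sides, at 0.62 in control and -0.94 in PGC-1α cells.

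In PGC-1α cells, PGC-1α+OGD against PGC-1α, 7 of the 32 genes were lower (21.9%, against 5.22% of all genes) and 2 were higher (6.25%, against 3.82%). The median log2 difference was -0.22 (all genes 0.00), and 26 of the 32 (81.2%) lay below 0, against 49.9% of all genes. The middle of the list lay between -0.48 and -0.05, against -0.19 and 0.17 for all genes. This comparison shares the PGC-1α+OGD library with that against Ctrl+OGD, so the genes low in that library enter both. The lower genes were Ndrg1 (-1.13), Adm (-1.04), Ankzf1 (-0.94), Errfi1 (-0.87), Car9 (-0.82), Loxl2 (-0.70) and Bnip3 (-0.62).

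Bnip3, a mitochondrial outer membrane receptor for mitophagy, was at 73.7 FPKM in Ctrl cells, 82.5 in PGC-1α cells, 78.3 in Ctrl+OGD cells and 53.2 in PGC-1α+OGD cells. Its homolog Bnip3l was at 42.8, 50.1, 46.0 and 42.7 FPKM. The ratio of Bnip3 to Bnip3l was therefore 1.72, 1.65 and 1.70 in the first 3 libraries and 1.25 in PGC-1α+OGD. Loxl2, an enzyme that cross-links collagen and elastin, was at 10.8, 15.6, 12.4 and 9.26 FPKM, highest in PGC-1α and lowest in PGC-1α+OGD.

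The genes higher in PGC-1α+OGD than in PGC-1α were Ddit4 and Ak4. Ddit4, an inhibitor of mTOR signaling, was at 6.95 FPKM in Ctrl cells, 4.43 in PGC-1α cells, 9.09 in Ctrl+OGD cells and 8.63 in PGC-1α+OGD cells, for a log2 difference of 0.83. The PGC-1α library was the low one, and both libraries after OGD were the highest. Ddit4 is also a target of ATF4, the transcription factor of the integrated stress response. Of 17 genes of the ATF4 list, which holds Atf4 itself, 5 were lower and 1 (Psat1) was higher in PGC-1α than in Ctrl, against 5.63% and 4.91% of all genes. In PGC-1α+OGD against PGC-1α, 3 were higher (Atf4, Ddit3 and Chac1) and none was lower, against 3.82% and 5.22% of all genes. Ddit3, a transcription factor of the stress response, was at 393 FPKM in Ctrl cells, 91.8 in PGC-1α cells, 228 in Ctrl+OGD cells and 212 in PGC-1α+OGD cells. It thus also had its lowest value in PGC-1α. Between Ctrl+OGD and Ctrl, the log2 difference was -0.78 for Ddit3 and 0.34 for Ddit4. A part of ATF4 in the values of Ddit4 was not tested.

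Ak4 was at 3.71 FPKM in Ctrl cells, 3.29 in PGC-1α cells, 3.46 in Ctrl+OGD cells and 5.62 in PGC-1α+OGD cells, with a log2 difference of 0.63 between the PGC-1α libraries. This value depended on the transcripts that were summed. Ak4-207, a short transcript, was at 1.61 FPKM without and 0.580 FPKM after OGD in PGC-1α cells, while Ak4-201 was at 0.456 and 2.42 FPKM and Ak4-202 at 0 and 1.90 FPKM. With the transcript of the highest mean in place of the sum, the difference was -0.72.

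The remaining genes are given by range. None of Fam162a, Hilpda, Ero1l, Plod1, Plod2, Mxi1, Bhlhe40, Kdm3a, Kdm4b, Jmjd6 or Narf passed 1.5-fold in any comparison. Ero1l was at 105, 83.5, 86.8 and 70.5 FPKM, highest in Ctrl and lowest in PGC-1α+OGD. Fam162a, the most abundant listed gene, was at 112, 134, 115 and 98.3 FPKM. The histone demethylase Kdm3a was level, at 9.59, 9.57, 10.6 and 10.5 FPKM, and the lysyl hydroxylases Plod1 and Plod2 differed by no more than -0.23 on the log2 scale. Hilpda, which inhibits lipolysis at lipid droplets, was at 6.39 to 8.01 FPKM. Ankrd37, an ankyrin repeat protein, was listed at 0 in PGC-1α, and at 0.799, 2.33 and 0.363 FPKM in Ctrl, Ctrl+OGD and PGC-1α+OGD. Its mean was under 1 FPKM, it entered no comparison, and its exons share 57 bases with Ufsp2 and 186 bases with Lrp2bp on the opposite strand.

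In some of the listed genes, the division of the value among transcripts differed between libraries. Of 33 genes, 13 had 1 deposited transcript. Of the other 20, 12 had the same most abundant transcript in all libraries, and 8 did not, namely Hif1a, Arnt, Bnip3l, Ak4, Kdm3a, Kdm4b, Jmjd6 and Ankzf1. The share among all 6508 genes with 2 or more transcripts was not computed. The count of 8 is therefore not shown to be particular to the listed genes. How fragments were divided among transcripts that share most of their exons is not given in the sources used here. For the genes with the largest differences after OGD, such division mattered little: Egln3 and Adm had 1 transcript, and Ndrg1-201 and Car9-201 held at least 97.8% of their genes in each library. Ankzf1 had 2, and its main transcript Ankzf1-208 was at 1.83, 3.20, 3.30 and 0.796 FPKM.

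**Figure D5:**
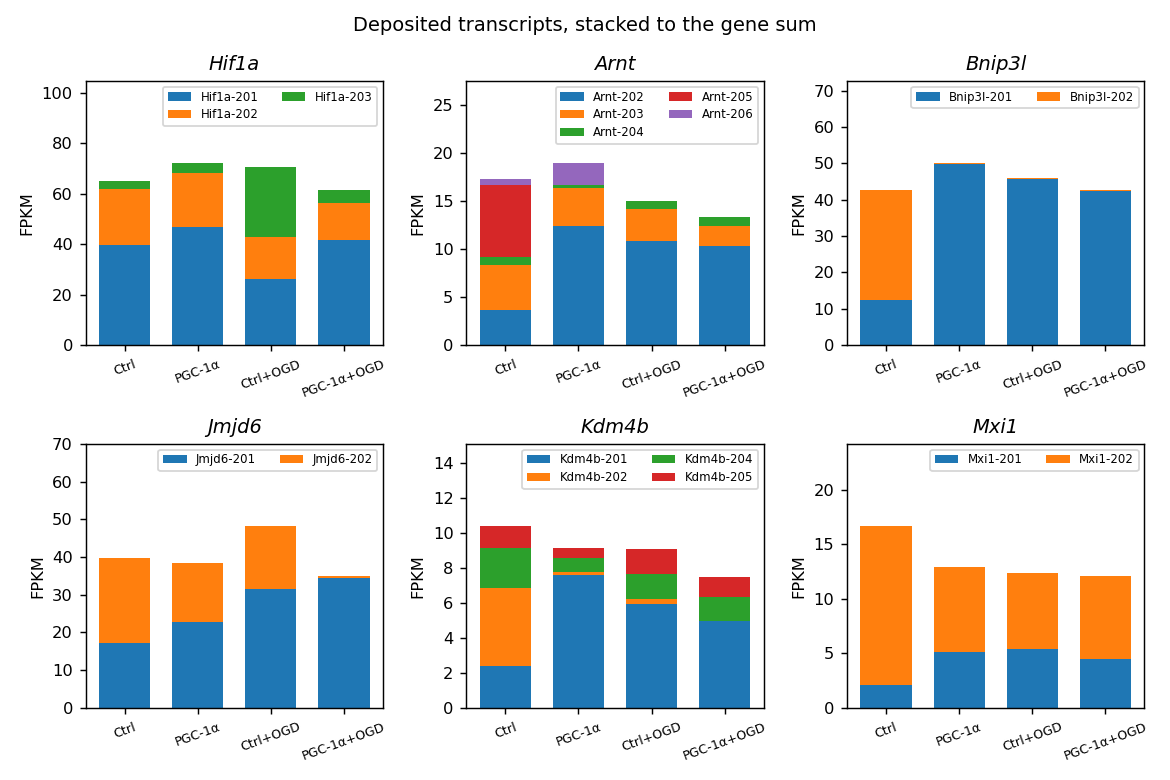
FPKM of the deposited transcripts of 6 genes in the 4 libraries, stacked so that each bar ends at the gene's sum. Bnip3l-202 makes up most of the bar in Ctrl (30.4 FPKM) and almost none in the other libraries, and Hif1a-203 is large in Ctrl+OGD alone (27.7 FPKM).

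Hif1a-203, a short transcript of 6 exons with a coding length of 774 bases against 2508 bases in Hif1a-201, was at 3.29 FPKM in Ctrl cells, 3.90 in PGC-1α cells, 27.7 in Ctrl+OGD cells and 5.06 in PGC-1α+OGD cells. Hif1a-201 was at 39.6, 46.9, 26.3 and 41.6 FPKM. Its share of the gene was thus 37.2% in Ctrl+OGD and between 60.8% and 67.7% in the other 3 libraries. Exons of Hif1a share 148 bases with the gene Gm49321 on the same strand, which had no value among those used.

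In several genes it was Ctrl that stood apart. Bnip3l-201 was at 12.4 FPKM in Ctrl cells, 49.9 in PGC-1α cells, 45.7 in Ctrl+OGD cells and 42.3 in PGC-1α+OGD cells, and Bnip3l-202 was at 30.4 FPKM in Ctrl and at most 0.308 FPKM elsewhere. Kdm4b-202 was at 4.43 FPKM in Ctrl and at most 0.294 FPKM elsewhere. Mxi1-201, one of 2 transcripts of this antagonist of MYC, was at 2.11 FPKM in Ctrl cells, 5.17 in PGC-1α cells, 5.40 in Ctrl+OGD cells and 4.44 in PGC-1α+OGD cells. Jmjd6 differed in another library. Jmjd6-202 was at 0.340 FPKM in PGC-1α+OGD and at 15.7 to 22.6 FPKM in the other 3 libraries.

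Arnt-205 was at 7.53 FPKM in Ctrl and was listed at 0 in the other 3 libraries, while Arnt-202 was at 3.66 FPKM in Ctrl cells, 12.4 in PGC-1α cells, 10.8 in Ctrl+OGD cells and 10.3 in PGC-1α+OGD cells. The annotated transcripts are 4325 bases (Arnt-202) and 4260 bases (Arnt-205) long, and the coding bases in which they differ are shown, which are not all the bases that tell them apart. The coding exon of Arnt-202 at chr3:95493698-95493860 (GRCm38, + strand) is given with the 48 bases in capitals that Arnt-205 lacks. A coding exon of 45 bases at chr3:95466793-95466837 is in Arnt-203 and not in Arnt-202.
Arnt-202 exon: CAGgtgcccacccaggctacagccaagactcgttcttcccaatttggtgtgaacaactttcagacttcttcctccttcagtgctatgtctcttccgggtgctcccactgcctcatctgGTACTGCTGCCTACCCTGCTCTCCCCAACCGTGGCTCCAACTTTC
Arnt-203 exon: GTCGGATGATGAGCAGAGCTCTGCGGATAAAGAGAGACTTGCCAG
Arnt-203 was at 4.66 FPKM in Ctrl cells, 3.99 in PGC-1α cells, 3.34 in Ctrl+OGD cells and 2.06 in PGC-1α+OGD cells.

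Other genes of the pathway were compared in the same way, from lists written with earlier results of these data known. Of 13 genes of the VHL ligase and other regulators of HIF, none was higher or lower in either comparison of PGC-1α with control. Of all genes, 4.91% were higher and 5.63% lower without OGD, and 3.08% and 3.82% after OGD. For 13 genes, a count of none is near these shares. The medians were 0.04 and -0.01 (all genes -0.03 and -0.01). After OGD in control cells, 2 of the 13 were higher, against 6.20% of all genes. They were the ubiquitin ligase gene Siah2 (6.24 and 10.2 FPKM in Ctrl and Ctrl+OGD) and the chaperone gene Hsp90aa1 (200 and 322 FPKM). In PGC-1α cells none was higher after OGD, against 3.82% of all genes.

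Of 12 further HIF targets outside glycolysis, 1 was higher in PGC-1α+OGD than in Ctrl+OGD, against 3.08% of all genes, and the median of the list was -0.08 (all genes -0.01). Angptl4, an inhibitor of lipoprotein lipase that is also a target of the PPAR receptors, was the higher one. It was at 38.9 FPKM in Ctrl cells, 44.2 in PGC-1α cells, 16.6 in Ctrl+OGD cells and 32.3 in PGC-1α+OGD cells. Ctrl+OGD was thus the low library, and PGC-1α+OGD lay below both libraries without OGD. Of 17 glycolytic HIF targets, 2 were lower (Slc2a1 and Eno2) and none was higher in this comparison, against 3.82% and 3.08% of all genes, with a median of -0.02 (all genes -0.01). The glucose transporter gene Slc2a1 was at 16.5 FPKM in Ctrl cells, 12.9 in PGC-1α cells, 19.8 in Ctrl+OGD cells and 10.6 in PGC-1α+OGD cells. Without OGD, 6 glycolytic genes were higher with the PGC-1α lentivirus and 1 was lower, against 4.91% and 5.63% of all genes. The median of the 17 was 0.48 (all genes -0.03). In Ctrl+OGD against Ctrl, 7 of the 17 were higher and none was lower, against 6.20% and 7.71% of all genes. The median there was 0.43 (all genes -0.02). These comparisons share the Ctrl library, and Pfkl, Tpi1, Pgk1 and Ldha were higher in both. Ldha was at 91.9, 149, 170 and 161 FPKM, with Ctrl as the low library. Of 20 genes listed with other dioxygenases of the iron and 2-oxoglutarate family, none was higher or lower in PGC-1α+OGD than in Ctrl+OGD. Of all genes, 3.08% were higher and 3.82% lower, and for 20 genes a count of none is near these shares. The median was -0.04 (all genes -0.01).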

How the data were processed

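RNA-Seq was analysed for 4 libraries of HT-22 cells, 1 per group, with groups taken from the sample labels. The deposited table holds 25889 transcripts, whose values were taken as FPKM computed by the authors, although the table names no unit. They are never negative, total 331892 to 353381 per library, and the highest value of each transcript is at least 0.500 FPKM. The submitters' processing notes name HISAT2 2.1.0 and GRCm38. The program that made the values and its annotation are not given in the sources used here. Reads per library are unknown, so no precision of a single value can be given.

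Transcripts were matched to GENCODE M21 by identifier (25822, 99.7%, with 67 left out) and summed per symbol. Values were compared as log2(FPKM + 1) unscaled, where the mean over libraries was 1 FPKM or more, at a threshold of 1.5-fold. Members and gene lists were chosen by known role, with earlier results of these data known. Full values were given for sensors and for every gene past 1.5-fold. A result of the list of further HIF targets is not reported here. Reads shared with paralogs or overlapping genes could not be separated. Promoters were from RefSeq (GRCm38.p6), with Ero1l matched through its synonym Ero1a. Percentiles and shares use all genes compared as background. Alternatives were a pseudocount of 0.1, no filter, a mean of at least 5 FPKM, median ratio and upper quartile scaling, the highest transcript per gene and a threshold of 2. Recounting the lowest library under 5 of these was added after seeing the data. Scripts ran under Python 3.11.15 with pandas 2.3.3 and numpy 2.4.6, plots were made with matplotlib 3.10.9, and the computations were tested on simulated data.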

Additional observations from a re-analysis of the deposited data

Results flagged for a closer look

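Ankzf1 was higher after OGD in control cells and lower after OGD in PGC-1α cells, each by more than 1.5-fold, with log2 differences of 0.62 and -0.94. The difference between them was not tested, since each value compares 2 single libraries. The gene had low values, between 1.94 and 4.99 FPKM.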

How the results depend on the processing

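The 5 genes lower in PGC-1α+OGD than in Ctrl+OGD kept their direction and stayed past 1.5-fold under every alternative run for them, with log2 differences from -0.84 to -0.80 for Egln3, -1.24 to -1.11 for Adm, -0.97 to -0.92 for Ndrg1, -0.89 to -0.83 for Car9 and -1.32 to -1.02 for Ankzf1. The count of 19 genes lowest in PGC-1α+OGD was 18 to 19 under scaling and filters and 14 with the highest transcript per gene, which was the lowest count. No scaling moved the median of all genes by more than 0.03. With the highest transcript, PGC-1α against Ctrl had 4 genes higher and 2 lower, PGC-1α+OGD against Ctrl+OGD had 1 higher, Ctrl+OGD against Ctrl had 6 higher and 2 lower, and the Ak4 difference between PGC-1α+OGD and PGC-1α reversed to -0.72. With a pseudocount of 0.1, PGC-1α against Ctrl had 2 higher and 1 lower, and PGC-1α+OGD against Ctrl+OGD had 1 higher. The genes that newly passed were Ankzf1 (0.66) and Ddit4 (-0.64) in the first and Ak4 (0.69) in the second. With no filter, PGC-1α against Ctrl had 1 lower, which was Ankrd37 (-0.85). With a mean of at least 5 FPKM, PGC-1α+OGD against PGC-1α had 1 higher, as Ak4, with a mean of 4.02 FPKM, was left out. At a threshold of 2, no gene was higher in PGC-1α, in Ctrl+OGD or in PGC-1α+OGD against PGC-1α (each 0), while 2 were lower in PGC-1α+OGD than in Ctrl+OGD and 2 than in PGC-1α. The shifts with the highest transcript go with the division of values among transcripts, whose cause was not tested. The shares of all genes were not recomputed under the alternatives, so the counts given for them cannot be set against all genes. No paired analysis was possible because each group has 1 library, and for the same reason no library could be left out. Read depth is unknown, so it cannot be said which low values, such as those of Ankrd37, are beyond counting error.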

Other observations

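Of the 20 genes listed with other dioxygenases, 1 was higher and 3 were lower in Ctrl+OGD than in Ctrl, against 6.20% and 7.71% of all genes. The share that was higher was thus not above that of all genes. The higher one, P3h3, a collagen prolyl hydroxylase, was at 10.6 FPKM in Ctrl cells, 13.8 in PGC-1α cells, 21.6 in Ctrl+OGD cells and 19.4 in PGC-1α+OGD cells, highest in both libraries after OGD, as P4ha2 was. Kdm5b, a histone demethylase, was at 5.38, 4.17, 2.91 and 2.14 FPKM, and was lower after OGD in both kinds of cells (log2 differences -0.71 and -0.72). Tet2, which oxidizes methylcytosine, was at 7.86 FPKM in Ctrl cells, 4.28 in PGC-1α cells, 4.26 in Ctrl+OGD cells and 3.71 in PGC-1α+OGD cells, so Ctrl stood apart from the other 3 libraries.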
